A study of Mus musculus with 20 samples.

Results

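The collagen genes were taken as all genes of the deposited tables whose symbol is *Col*, a number, a and a number, which gave 44 genes of 24411. By the assemblies they are known to form, 11 were grouped as fibrillar collagens, 8 as basement membrane collagens, 9 as fibril-associated collagens with interrupted triple helices (FACIT) and 16 as other collagens. RNA-seq had been made from the mouse cochlea of the C57BL/6N strain, from microdissected sensory epithelium and spiral ganglion of the apical coil. All mice carried at least 1 tm2b allele of *Adgrb1*, the gene of the adhesion receptor BAI1, in which a lacZ cassette replaces early exons and leaves a short isoform intact. Control mice were heterozygous (Bai1 tm2b/+, labelled Het) and were compared with homozygous mice (Bai1 tm2b/tm2b, labelled Homo), with both sexes used and no wild-type group. Each library came from a pool of 4 mice per the labels, so the spread between libraries is a spread between pools. There were 3 Het and 3 Homo libraries at postnatal day 22 (P22), after the onset of hearing, and 7 of each genotype at P7, before it. The P7 libraries came in a pair of batches, replicates 1 to 4 and replicates 5 to 7, which hold different units.

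A collagen molecule is built from 3 chains that wind into a triple helix, in which each chain repeats glycine followed by a pair of other residues (Gly-X-Y). Fibrillar collagens form the long banded fibrils of bone, cartilage and connective tissue, and FACIT collagens sit on their surface. Type IV collagens form the mesh of basement membranes around vessels, nerves and epithelia, and type VI collagen forms beaded filaments near cells. In the cochlea, types II, IX and XI are known as collagens of the tectorial membrane, the gel that overlies the hair cells, and type II also occurs in the spiral limbus, ligament and otic capsule.

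The repeat can be read directly in the exons, and 1 exon of 54 bases is shown for each of 6 genes on which the results below turn. Each is the first internal coding exon of that length that lies in frame and starts all 6 triplets of codons with a glycine codon, found in the principal GENCODE transcript (GRCm38, which is mm10). The capitals mark the 6 glycine codons, and the sequences are given 5′ to 3′ on the strand of the gene.
*Col2a1*, exon 6, chr15:97998545-97998598, minus strand: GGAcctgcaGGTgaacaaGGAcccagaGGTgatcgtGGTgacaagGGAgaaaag
*Col1a2*, exon 8, chr6:4515481-4515534, plus strand: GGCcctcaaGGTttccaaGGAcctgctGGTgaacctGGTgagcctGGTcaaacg
*Col11a2*, exon 15, chr17:34051480-34051533, plus strand: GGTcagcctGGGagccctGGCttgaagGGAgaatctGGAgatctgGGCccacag
*Col9a1*, exon 11, chr1:24202014-24202067, plus strand: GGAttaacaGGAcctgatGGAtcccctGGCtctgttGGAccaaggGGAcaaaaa
*Col4a1*, exon 7, chr8:11245211-11245264, minus strand: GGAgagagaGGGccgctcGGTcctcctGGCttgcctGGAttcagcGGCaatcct
*Col6a1*, exon 9, chr10:76719623-76719676, minus strand: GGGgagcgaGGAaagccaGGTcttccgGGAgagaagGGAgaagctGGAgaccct

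The classes differed in how far the repeat runs without a break. The longest uninterrupted run was 216 to 344 triplets in fibrillar members (median 338), 30 to 66 in basement membrane members, 32 to 113 in FACIT members and 23 to 87 in the others. The number of 54-base exons was 21 to 33 in fibrillar members, 4 to 28 in FACIT members, 1 to 3 in basement membrane members and 0 to 6 in the others. The fibrillar and FACIT ranges overlapped, since *Col22a1* has 28 such exons and *Col1a1* has 21.

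The P22 libraries and the P7 libraries of replicates 5 to 7 hold estimated read counts, with totals of 35725985 to 40350413 and 31108551 to 58807173 counts per library. The P7 libraries of replicates 1 to 4 hold numbers that behave as transcripts-per-million (TPM) values rounded to whole numbers, so their depth is unknown. *Adgrb1* was measured at 152 to 167 counts-per-million units (CPM) in Het and 100 to 105 in Homo libraries at P22, and at 32.1 to 56.4 and 21.6 to 31.2 CPM at P7. In the rounded TPM it was 7 to 12 in Het and 9 to 12 in Homo libraries, which overlap. These values sum all isoforms, the intact short one included, and so are no direct check of the deletion. Of the marker lists, spiral ganglion neuron genes summed to 13300 to 15200 CPM in Het and 9830 to 11200 in Homo libraries at P22, against 1130 to 2560 CPM in the P7 count libraries. Fewer cells of a type and less RNA per cell cannot be told apart in such pooled tissue, and age coincides with the batch of libraries. By immunolabelling, the study reported no significant difference between genotypes in the number of afferent fibres at the inner hair cells of adult mice.

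Collagen transcripts took up a median of 2.88% of all counts at P7 (range 2.61 to 3.03%, n = 6) and 0.425% at P22 (range 0.349 to 0.445%, n = 6). Fibrillar members made up most of the collagen counts at both ages, 66.5 to 71.3% at P7 and 65.7 to 68.7% at P22. Within that share the leading gene changed. *Col2a1*, the chain of type II collagen, made up 25.6 to 31.5% of collagen counts at P7 and 10.6 to 12.7% at P22. *Col1a2*, the α2 chain of type I collagen, made up 11.2 to 13.8% and 19.2 to 22.4%.

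Levels of different genes are compared here as CPM per kilobase of the principal transcript. At P22 *Col1a2* was highest with a median of 176 (range 160 to 199), followed by *Col11a2* with 161 (range 123 to 175) and *Col2a1* with 108 (range 82.8 to 115). The ranges of *Col1a2* and *Col11a2* overlapped, and that of *Col2a1* lay below both. At P7 *Col2a1* led with a median of 1510 (range 1260 to 1600), followed by the α2 chain of type IX, *Col9a2*, with 687 (range 516 to 759), and by *Col1a2* with 614 (range 518 to 715). Basement membrane members were led at P22 by *Col4a1* with 29.6 (range 26.6 to 36.8), *Col4a2* with 25.2 (range 21.5 to 29.6) and *Col15a1* with 13.2 (range 12.3 to 16.5). Among FACIT members *Col9a2* had a median of 72.7, *Col9a3* 55.4 and *Col9a1* 18.3, and among the others *Col8a1* had 13.6, *Col6a2* 12.3 and *Col6a1* 11.7. The last 3 overlapped over the libraries.

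**Figure D1:**
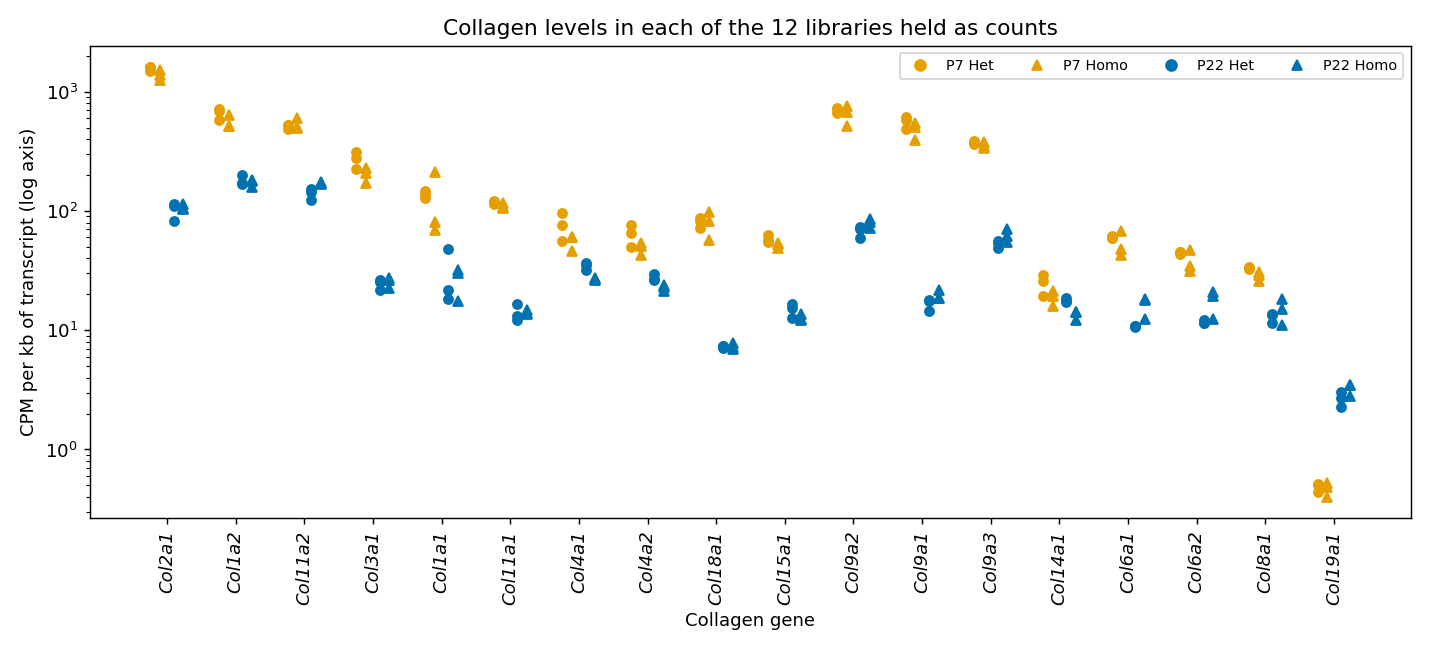
Level of 18 collagen genes in each of the 12 libraries held as counts, in CPM per kb of transcript on a log axis, with orange for P7, blue for P22, circles for Het and triangles for Homo. Nearly all genes lie lower at P22, *Col14a1* overlaps between ages, and *Col19a1* lies higher at P22.

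The comparison of ages asked how collagen transcripts change between the immature cochlea before hearing and the cochlea after it. Of 43 members tested, 37 fell, 1 rose and 5 were not called, against 28.7% of all 16314 genes called lower and 25.9% called higher. A gene was called where the quasi-likelihood test of edgeR gave an adjusted p below 0.05 with a change of more than 0.5 on the log2 scale and a standard error (SE) smaller than 0.5. The median log2 fold change of the members was -2.07, and that of all genes was -0.05. In 36 members every P22 library lay below every P7 library, as did 32.0% of all genes. *Col14a1*, *Col17a1*, *Col23a1*, *Col5a3* and *Col6a5* were not called, and *Col6a4* did not pass the filter on low counts, at P7 as well.

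**Figure D2:**
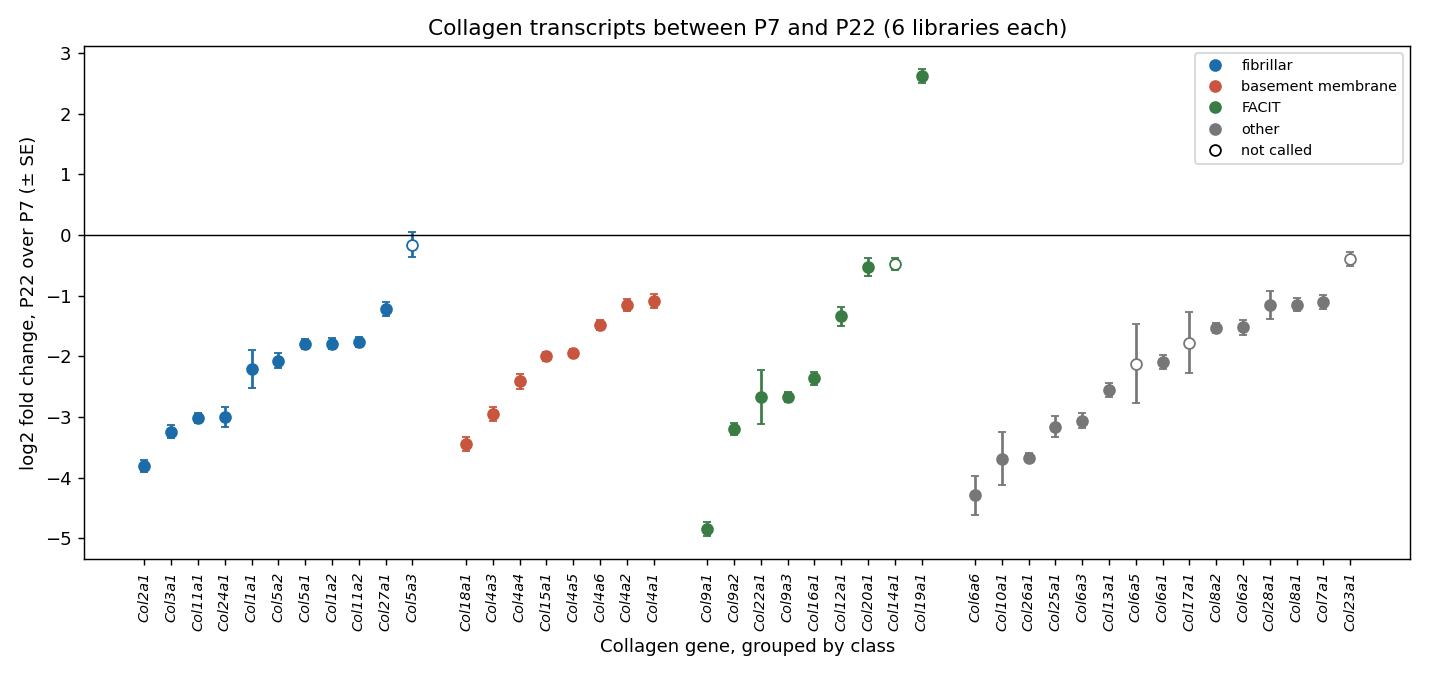
Log2 fold change between P7 and P22 (± SE, edgeR) of 43 collagen genes, sorted within 4 classes, with filled points called and open points not called. All points but that of *Col19a1* lie below 0, from -4.84 for *Col9a1* to -0.16 for *Col5a3*.

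Of the 11 fibrillar members, 10 fell. *Col2a1* fell 14.0-fold, from 7640, 8170 and 8180 CPM in Het and 6410, 7780 and 7030 CPM in Homo libraries at P7 to 583, 562, 423, 587, 536 and 527 CPM at P22 (log2 fold change -3.81, SE 0.105, adjusted p = 2.22e-11, edgeR). The ages were far apart and the genotypes overlapped at both. *Col3a1*, the chain of type III collagen found with type I in soft tissue, went from 955 to 1760 CPM at P7 to 120 to 151 CPM at P22 (-3.24, SE 0.111). *Col11a1*, which sets fibril width together with type II, fell by 3.02 on the log2 scale (SE 0.0784), and its partner *Col11a2* fell by 1.76 (SE 0.0798). The type I genes *Col1a1* and *Col1a2* fell by 2.21 (SE 0.315) and 1.79 (SE 0.0917). *Col5a3*, a minor type V chain, was measured at 18.0 to 54.2 CPM at P7 and 30.4 to 37.4 CPM at P22, which overlap.

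The FACIT members held both extremes. *Col9a1*, the α1 chain of type IX collagen, was at 1870, 2370 and 2200 CPM in Het and 1500, 2080 and 1940 CPM in Homo libraries at P7. At P22 it was at 67.4, 68.6 and 55 CPM in Het and 83.4, 72 and 72.1 CPM in Homo libraries, 28.6-fold lower (-4.84, SE 0.116, adjusted p = 1.14e-11, edgeR). *Col9a2* and *Col9a3* fell less, by 3.20 (SE 0.104) and 2.67 (SE 0.0758). *Col19a1*, a collagen of basement membrane zones that is known from neurons, was the only member called higher with age. It rose from 1.72 to 2.22 CPM at P7 to 11.6, 9.71 and 13.0 CPM in Het and 11.9, 14.8 and 14.8 CPM in Homo libraries at P22 (2.62, SE 0.111, adjusted p = 3.70e-10, edgeR). Its 2 age groups did not overlap, as those of 6 of the 7 FACIT members called lower did not. Spiral ganglion neuron genes rose over the same ages in 6 of 7 cases, and their part in the *Col19a1* result was not tested.

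All 8 basement membrane members fell. *Col18a1*, the source of endostatin, fell most, from 271 to 469 CPM at P7 to 33.1 to 37.7 CPM at P22 (-3.45, SE 0.119). *Col4a3* and *Col4a4*, chains of the network found in mature basement membranes, fell by 2.95 (SE 0.121) and 2.41 (SE 0.126). *Col4a1* and *Col4a2*, which form the common network of vessels and nerves, fell least, by 1.09 (SE 0.116) and 1.16 (SE 0.0979), and became the leading members of their class. Among endothelial cell and pericyte genes, *Pecam1* rose by 0.98, *Kdr* fell by 0.59 and the other 3 of 5 were not called.

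Of the 15 other members tested, 12 fell. *Col26a1* was at 133 to 189 CPM at P7 and 11.4 to 13.8 CPM at P22 (-3.67, SE 0.0700). *Col6a6* and *Col10a1*, the latter the collagen of hypertrophic cartilage, fell by 4.29 (SE 0.318) and 3.69 (SE 0.438), but both lay at or under 0.279 CPM in every P22 library. Neither passed the filter on low counts within P22, so both entered the age test only through the P7 libraries. *Col10a1* lost its call with DESeq2, in Het or Homo libraries alone, and without P22 Homo replicate 2. The 3 main type VI chains fell unequally, *Col6a3* by 3.06 (SE 0.126), *Col6a1* by 2.09 (SE 0.118) and *Col6a2* by 1.52 (SE 0.123). The type VIII genes *Col8a1* and *Col8a2* fell by 1.15 (SE 0.103) and 1.54 (SE 0.0812).

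The 6 tectorial membrane collagens all fell, with log2 fold changes from -4.84 to -1.76. Of the 6 glycoprotein genes of the same gel, 5 fell and 1 rose, with *Tecta* at -8.11 and *Ceacam16* at 11.30. Of 5 cartilage genes tested 3 rose and 2 fell, and of 7 bone genes 1 rose and 6 fell. The part of each tissue in the fall of these collagens was not tested. Against the P7 libraries in rounded TPM, which share no library with the P7 counts, 32 of the 35 members tested fell, on a scale of P22 counts per length and with limma, against 29.0% of all 11490 genes called lower and 28.4% called higher. *Col27a1* then had a log2 fold change of 0.32 in place of -1.22, and *Col11a2* one of -0.74 in place of -1.76. The P22 libraries are the same in both, and the units and lengths differ between the tables.

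Chains of one collagen type did not keep their proportions between ages. The per-length ratio of *Col9a1* to *Col9a2* was 0.715 to 0.881 in the P7 count libraries and 0.232 to 0.259 at P22. That of *Col11a1* to *Col11a2* was 0.173 to 0.233 and 0.0801 to 0.108, and that of *Col6a3* to *Col6a2* 0.139 to 0.188 and 0.0366 to 0.0718. In none of these pairs did the ages overlap. The ratio of *Col6a1* to *Col6a2* moved from 1.33 to 1.45 at P7 to 0.861 to 0.996 at P22. In contrast, *Col4a1* to *Col4a2* stayed at 1.08 to 1.25 and 1.15 to 1.32, which overlap. *Col1a1* to *Col1a2* lay at 0.134 to 0.331 and 0.109 to 0.240, although type I collagen is known to contain more of the α1 chain. In the rounded TPM libraries the ratio of *Col9a1* to *Col9a2* was 1.17 to 1.84 and that of *Col11a1* to *Col11a2* 0.363 to 0.488, outside both ranges from counts. Table, length basis and batch of libraries coincide and cannot be told apart.

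**Figure D3:**
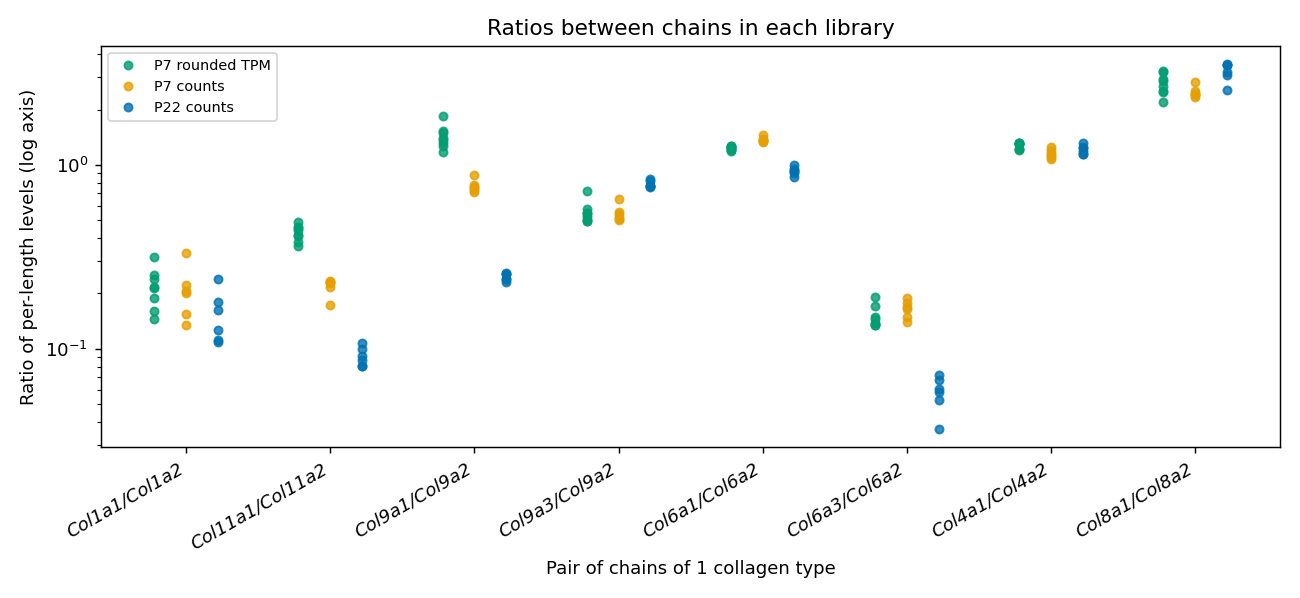
Ratio of the per-length levels of 2 chains of one collagen type in each library, on a log axis, for P7 rounded TPM (green, n = 8), P7 counts (orange, n = 6) and P22 counts (blue, n = 6). The P22 ratios of *Col11a1* to *Col11a2*, *Col9a1* to *Col9a2* and *Col6a3* to *Col6a2* lie below all P7 ratios, and those of *Col4a1* to *Col4a2* overlap.

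Genes that make, fold, cut, cross-link and bind collagen mostly moved the same way. Of 76 tested genes from 8 lists, 57 fell and 4 rose, against 28.7% of all 16314 genes called lower and 25.9% called higher. The median of the 76 was -1.15, and that of all genes was -0.05. All 8 genes of propeptide cleavage fell, most of all *Adamts14* (-3.96, SE 0.152). Of 15 hydroxylation and glycosylation genes 12 fell, led by the lysyl hydroxylase *Plod2* (-2.82, SE 0.0733), and of 6 folding and export genes 4 fell, led by *Fkbp10* (-2.70, SE 0.0704). Of 5 cross-linking genes 4 fell, led by *Loxl1* (-2.71, SE 0.0962), and all 8 tested receptor genes fell, led by *Itga2* (-2.36, SE 0.287). Of 11 genes of degradation and its inhibitors 7 fell, led by *Mmp9* (-6.23, SE 0.482). Fibril-bound proteoglycans divided into 3 that rose, with *Prelp* at 1.10 (SE 0.0806), and 3 that fell, with *Lum* at -3.25 (SE 0.104). Of 15 basement membrane partners 11 fell, led by *Nid2* (-2.78, SE 0.0937), and the laminin gene *Lama1* rose (2.13, SE 0.159).

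The comparison of genotypes at P22 asked whether collagen transcripts differ where both copies carry the tm2b allele. Only *Col6a1* and *Col6a2*, 2 of 39 members tested, were called, both higher in Homo libraries, against 1.74% of all 15443 genes called higher and 1.41% called lower. *Col6a1* was at 44.7, 44.3 and 43.7 CPM in Het and 73.6, 74.6 and 51.0 CPM in Homo libraries, a 1.51-fold difference (log2 fold change 0.59, SE 0.121, adjusted p = 0.0127, edgeR). *Col6a2* was at 47.8, 45.9 and 45.1 CPM in Het and 82.3, 75.7 and 49.3 CPM in Homo libraries (0.59, SE 0.148, adjusted p = 0.0298, edgeR). In both genes Homo replicate 3 lay just above the Het libraries and the other Homo replicates well above them. Schwann and satellite cell genes summed to 20300, 20200 and 19300 CPM in Het and 22800, 24000 and 20200 CPM in Homo libraries. Homo replicate 3 was again the lowest Homo library and within the Het range. The 5 genes of this list were divided, with 3 log2 fold changes above 0 and 2 below it (-0.19 to 0.54). Fibroblast genes summed to 569, 572 and 536 CPM in Het and 639, 595 and 568 CPM in Homo libraries, in the same pattern. Spiral ligament fibrocyte genes differed, with 8020, 8200 and 7160 CPM in Het and 8910, 7570 and 9420 CPM in Homo libraries, highest in Homo replicate 3. The part of these cells in the type VI values was not tested. *Col6a3*, whose chain joins the other 2 in type VI collagen, was at 6.60, 7.51 and 6.92 CPM in Het and 6.86, 9.07 and 6.56 CPM in Homo libraries, which overlap (0.10, SE 0.151, adjusted p = 0.692, edgeR). Without Homo replicate 2, neither gene was called (*Col6a1* 0.51, adjusted p = 0.0567; *Col6a2* 0.52, adjusted p = 0.111, edgeR). *Col6a2* also lost its call without Het replicate 1 (adjusted p = 0.0761), Het replicate 3 (adjusted p = 0.0975) or Homo replicate 1 (adjusted p = 0.0869), in the same edgeR test.

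By the adjusted p value alone, 4 members were higher and 3 lower, against 5.04% and 7.28% of all genes. The 2 further higher members were *Col11a2* (0.31, SE 0.0770, adjusted p = 0.0282, edgeR) and the fibrillar *Col27a1* (0.35, SE 0.0771, adjusted p = 0.0168, edgeR). *Col27a1* was named after its values were seen. The 3 lower members were *Col14a1* (-0.39, SE 0.0696, adjusted p = 0.00741), *Col4a1* (-0.35, SE 0.0624, adjusted p = 0.00743) and *Col4a2* (-0.27, SE 0.0638, adjusted p = 0.0225) in the same edgeR test. *Col4a1* was at 243, 211 and 232 CPM in Het and 176, 182 and 178 CPM in Homo libraries, and *Col4a2* at 191, 172 and 172 against 149, 153 and 139 CPM. *Col14a1*, a FACIT collagen of fibril surfaces, was at 106, 99.4 and 98.7 against 80.3, 70.0 and 80.4 CPM. In each of these 3 the genotypes did not overlap and the difference stayed under the fold required for a call. Over the 39 members tested, 3 did not overlap with Homo lower and 10 with Homo higher. Among all 15443 genes, 2765 and 2434 did so. Among 5 endothelial and pericyte genes, 3 lay below 0, *Pecam1* at -0.35 and *Rgs5* at -0.34 among them, and 2 lay above it (maximum 0.11). The sum of this list was 210 to 249 CPM in Het and 197 to 243 CPM in Homo libraries. The part of these cells in the type IV values was not tested.

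**Figure D4:**
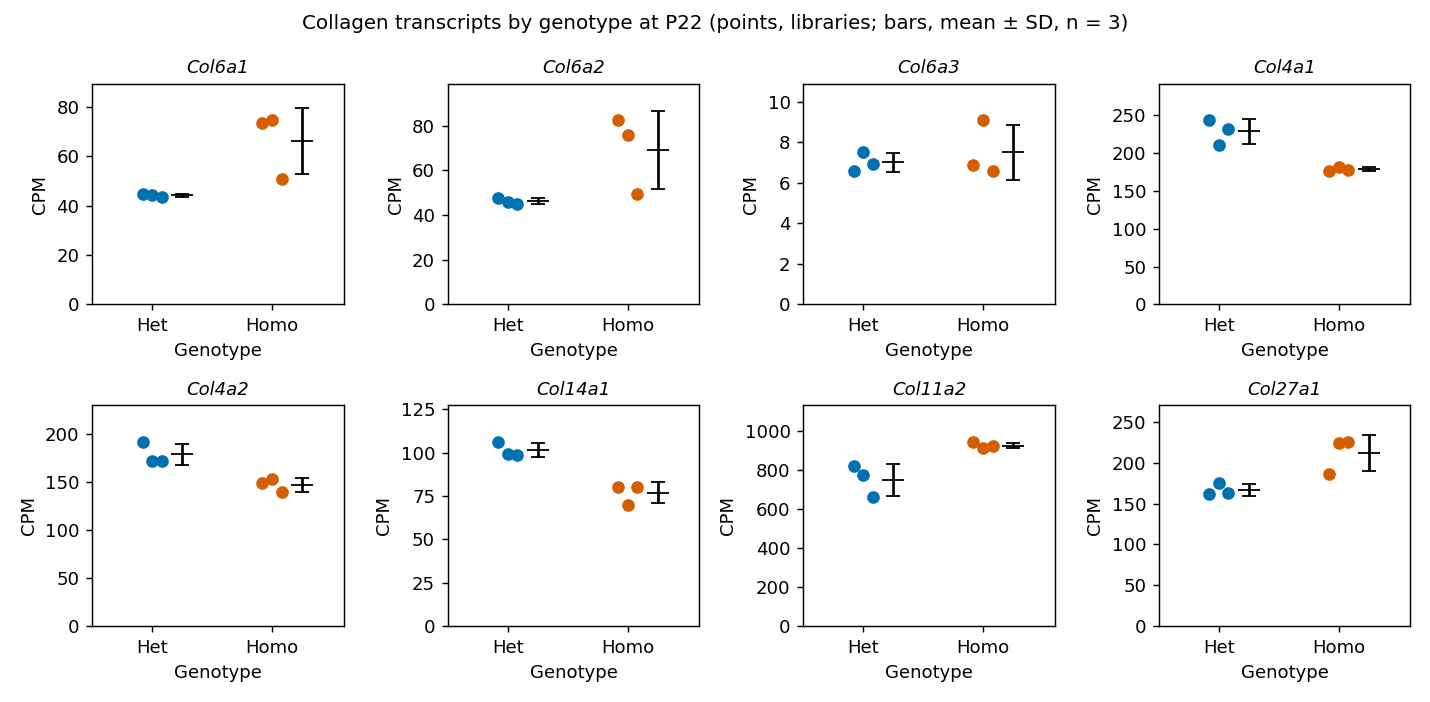
CPM of 8 collagen genes in each P22 library by genotype, with points for libraries and the bar for the mean ± SD (n = 3 pools each). *Col6a1* and *Col6a2* are higher in Homo libraries with 1 library close to Het, *Col6a3* overlaps, and *Col4a1*, *Col4a2* and *Col14a1* are lower in all 3 Homo libraries.

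Of the 44 members, *Col10a1*, *Col17a1*, *Col6a4*, *Col6a5* and *Col6a6* did not pass the filter at P22. Over the 39 tested the median log2 fold change at P22 was 0.09, and over all genes it was 0.01. The tectorial membrane collagens ranged from 0.03 to 0.31, with none of the 6 called. Their glycoprotein partners included *Tectb*, which rose in Homo libraries (1.02, SE 0.0808, adjusted p = 0.000303, edgeR), and the list of 6 glycoprotein genes summed to 1740 to 1910 CPM in Het and 2070 to 2490 CPM in Homo libraries. Of the 76 tested genes of the collagen lists, 2 rose and 1 fell, against 1.74% of all 15443 genes called higher and 1.41% called lower. *Omd*, which encodes a small proteoglycan of bone, rose from 4.97, 4.75 and 5.49 CPM to 8.14, 8.46 and 7.65 CPM (0.68, SE 0.130). The neutrophil collagenase gene *Mmp8* rose from 0.0921, 0.0943 and 0.117 CPM to 0.786, 0.716 and 0.586 CPM (2.74, SE 0.453). It lay near the floor in the Het libraries and passed the filter on low counts only through the Homo libraries. Its call therefore carries little weight. *Adamts3*, a procollagen peptidase, fell from 9.79, 9.52 and 12.5 CPM to 6.35, 8.52 and 6.75 CPM (-0.55, SE 0.154). Among marker genes at P22, *Nefh* (-0.52) and *Hapln1* (-0.63) fell, and *Otof* (0.54), *Mbp* (0.54) and *Mki67* (1.63) rose.

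At P7, no member was called between genotypes in the count libraries, of 43 tested, and 0% of all 16026 genes were called in either direction by edgeR. At an unadjusted p under 0.05 there were 2 members, against 4.76% of all genes, and DESeq2 also called 0 members. The median log2 fold change was -0.11, and the type VI genes had values of -0.16 (*Col6a1*, SE 0.175), -0.22 (*Col6a2*, SE 0.158) and 0.04 (*Col6a3*, SE 0.186). *Col6a1* was at 246, 245 and 251 CPM in Het and 277, 197 and 175 CPM in Homo libraries, which overlap.

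In the P7 libraries of rounded TPM, all 35 members tested had a value above 0, as did 6207 of all 11740 genes. Of the 35, 7 were called higher in Homo libraries, against 0.673% of all genes called higher and 0.153% called lower. The adjusted p value alone was passed by 12 members, all higher, against 4.76% and 3.26% of all genes. *Col10a1*, *Col17a1*, *Col19a1*, *Col20a1*, *Col4a6*, *Col6a4*, *Col6a5*, *Col6a6* and *Col7a1* lay under the minimum level and were not tested. The 7 were *Col12a1*, *Col14a1* and *Col16a1* among FACIT members, *Col4a1* and *Col4a2*, the fibrillar *Col5a1*, and *Col6a3*. *Col12a1* was at 13, 14, 9 and 10 TPM in Het and 25, 19, 15 and 29 TPM in Homo libraries (0.76 on the log2(TPM + 1) scale, SE 0.178, adjusted p = 0.0446, limma). *Col16a1* was at 52, 54, 48 and 51 against 64, 97, 74 and 95 TPM (0.55, SE 0.110, adjusted p = 0.0436, limma). *Col4a1* was at 172, 164, 129 and 137 against 171, 327, 268 and 263 TPM, so that Homo replicate 1 lay among the Het libraries (0.63, SE 0.158, adjusted p = 0.0464, limma). *Col4a2* showed the same pattern, with 131, 125, 99 and 114 against 131, 269, 219 and 202 TPM (0.65, SE 0.173, adjusted p = 0.0492, limma).

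*Col14a1* was at 51, 50, 36 and 39 TPM in Het and 55, 89, 70 and 77 TPM in Homo libraries (0.60, SE 0.131, adjusted p = 0.0439, limma). *Col5a1*, a chain of the type V collagen that starts fibrils, was at 51, 46, 33 and 41 against 56, 84, 73 and 71 TPM (0.61, SE 0.126, adjusted p = 0.0436, limma), and its partner *Col5a2* was not called (0.49, SE 0.109). *Col6a3* was at 12, 11, 7 and 10 against 16, 19, 13 and 19 TPM (0.60, SE 0.144, adjusted p = 0.0450, limma). In 11 members the genotypes did not overlap with Homo higher, as in 9.31% of all genes. Of 63 tested genes of the collagen lists, 4 rose and none fell by limma, against 0.673% of all 11740 genes called higher and 0.153% called lower. The 4 were *Adamts2* (0.52) and the laminins *Lama2* (0.59), *Lama4* (0.54) and *Lamb1* (0.57). In 30 of the 63 the unadjusted p of limma was under 0.05, against 34.6% of all genes. The marker genes called higher were *Acan* (0.52), *Tecta* (1.2), *Otog* (0.56) and *Otof* (0.54).

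These fold changes moved with transcript length. Across the 11343 genes with a known length, which are not independent replicates, Spearman's rho between length and log2 fold change was 0.593. The members had a median length of 5564 bases, against 3033 bases over all of these genes, members included. The 1740 genes at least as long as the median member had a median log2 fold change of 0.19, and the 35 members one of 0.42. After a trend on length and GC content had been removed from each library, an alternative chosen after seeing the data, 0 members were called, and 9 of the 35 had values below 0 (median 0.19, range -0.21 to 0.47). The 7 genes then had values of 0.47 (*Col12a1*), 0.42 (*Col14a1*), 0.33 (*Col4a1* and *Col4a2*), 0.27 (*Col16a1* and *Col6a3*) and 0.26 (*Col5a1*). The number called was also 0 with the replicate number as a block, with a minimum of 1 TPM or no minimum, and in 6 of the 8 fits that left out a library. In each of these fits, as after removal of the trend, 0 of all genes were called in either direction. The number of members was 10 without Het replicate 1, 12 without Homo replicate 1 and 15 without TMM scaling. Of all genes, 110, 266 and 283 were then called higher.

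**Figure D5:**
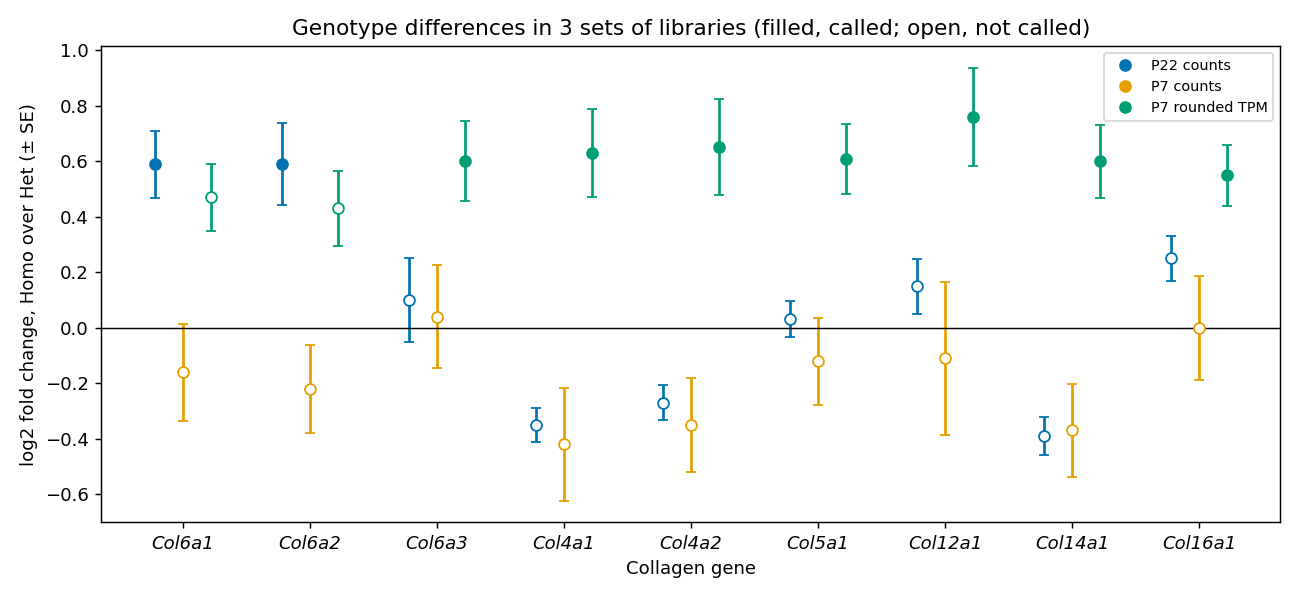
Log2 fold change between Homo and Het (± SE) of 9 collagen genes in the P22 counts, the P7 counts and the P7 rounded TPM, filled where called. *Col6a1* and *Col6a2* are called at P22, 7 genes are called in the rounded TPM, and *Col4a1*, *Col4a2* and *Col14a1* lie below 0 in both count sets and above 0 in the rounded TPM.

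The genotype difference was then compared between P22 and the P7 counts. No member was called of 43 tested, against 0% of all 16314 genes called higher and 0.0306% called lower by edgeR, and 8 members had an unadjusted p under 0.05, as did 10.2% of all genes. The largest differences among the type VI genes were 0.78 for *Col6a1* (SE 0.228, adjusted p = 0.295, edgeR) and 0.83 for *Col6a2* (SE 0.241, adjusted p = 0.293, edgeR), against 0.09 for *Col6a3* (SE 0.240). Without P7 Homo replicate 5, *Col6a1* was called (1.00, adjusted p = 0.0332, edgeR). DESeq2 called 0 members.

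Within a genotype and age, most members varied little between pools and a few varied widely. In the Het libraries of P22 the largest spread was that of *Col22a1*, a FACIT collagen of tissue junctions, with 10.1, 2.29 and 1.06 CPM in Het and 2.55, 3.10 and 1.23 CPM in Homo libraries. *Col1a1* followed, with 283, 129 and 108 CPM and 178, 192 and 105 CPM. The osteoblast gene *Bglap* was at 57.0, 16.8 and 6.28 CPM and 23.4, 25.4 and 6 CPM in the same libraries, highest in Het replicate 1 like both collagens. At P7 *Col1a1* was at 765, 873 and 826 CPM in Het and 1260, 475 and 412 CPM in Homo libraries, and *Bglap* at 52.5, 93.1 and 57.4 CPM and 95.4, 34.8 and 45.3 CPM. *Bglap* was named after its values were seen. Of the 7 bone genes, 6 were highest in Het replicate 1 among the P22 Het libraries, and *Spp1* was highest in Het replicate 2. The list sum, most of it *Spp1*, was lowest among Het libraries in replicate 1, with 2720, 3350 and 2810 CPM in Het and 2380, 2110 and 2240 CPM in Homo libraries. The part of bone in the collagen values was not tested. *Col1a2* spread less, with 854 to 1060 CPM over all P22 libraries.

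Between genotypes, all 35 members tested had values above 0 in the rounded TPM, as did 6207 of all 11740 genes. In the P7 counts 33 of 43 members had values below 0, as did 7871 of all 16026 genes. All 8 basement membrane members were among the 33, and none was called. *Col4a1* and *Col4a2*, which were also below 0 at P22, lie head to head on chromosome 8. Their annotated starts in RefSeq (GRCm38.p6) are at 11312826 on the minus strand and 11312805 on the plus strand, 21 bases apart, so the first exons overlap. The stretch from one start to the other, on the plus strand, is shown with a GGGCGG motif in capitals.
*Col4a1* and *Col4a2*, chr8:11312805-11312826: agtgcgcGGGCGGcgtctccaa
Of the 44 members, 35 had a promoter in the RefSeq table, with 38 promoters of 300 bases. GGGCGG was found on either strand in 60.5% of them and in 35.7% of all promoters. CCAAT was found in 34.2% and 37.4%, and TATAAA in 13.2% and 13.6%. The match is a description of these letters and not of a bound factor.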

How the data were processed

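Poly A libraries from pools of cochlear tissue (both sexes) had been sequenced with paired-end reads, mapped to mm10 and counted per gene by the authors with an nf-core pipeline; the labels name STAR and Salmon, and tool versions, annotation release and strand setting are not given in the sources used here. The authors deposited estimated counts, without normalization, for P22 and for P7 replicates 5 to 7. For P7 replicates 1 to 4 they deposited a score whose library sums and whole values fit rounded TPM, so these libraries were tested separately. Pools held 4 mice per the labels and 3 to 4 per other text of the study, and p values measure only the spread between pools.

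Counts were rounded, filtered with filterByExpr, scaled by TMM and tested over all genes with edgeR 4.0.16 in R 4.3.3 (quasi-likelihood). Genotype fits used the libraries of 1 set, and age and genotype by age used the 12 count libraries. Rounded TPM were tested with limma 3.58.1 on log2(TPM + 1) after TMM scaling, where the mean reached 5 TPM, which understates changes of low genes. P values were adjusted by Benjamini-Hochberg over all genes tested. A call needed an adjusted p under 0.05, a log2 fold change beyond 0.5 and a standard error under 0.5. Printed CPM were scaled jointly over the 12 count libraries, and per-length levels used the principal GENCODE vM21 transcript (23350 of 24409 symbols matched, and all 44 members). At most 6.07% of a member's exon bases overlap another gene, in *Col9a3*, on the opposite strand, and reads there cannot be told apart if strand was not used. The scripts were tested on simulated data. No column of values was left unused. The values of 1 further marker gene, called lower in the rounded TPM, are not reported here.

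Members, classes and lists were chosen with earlier results of these data known. Named were members called between genotypes, the 3 highest per class at P22, the 3 largest called age changes per class and direction, and their chain partners, and from other lists genes called between genotypes and the largest called age change per direction. Alternatives were other scaling, no filter, DESeq2 1.42.0, a replicate block and each library left out. Same-numbered Het and Homo libraries correlated little in their deviations from group means (r -0.232 to 0.081), and the main fits did not pair them. With so few libraries per group, these values cannot exclude that same-numbered pools were related.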

Additional observations from a re-analysis of the deposited data

Results flagged for a closer look

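In the rounded TPM libraries, where groups hold 4 samples, 3 of 70 groups had a library far from the others, and chance alone marks about 1 in 20. *Col9a3* was at 870 TPM in Het replicate 3 and at 610 to 649 TPM in the other Het libraries. *Col24a1* was at 10 TPM in Het replicate 2 and 11 TPM in the others, and *Col25a1* at 5 TPM in Het replicate 4 and 6 TPM in the others, steps of a single unit of rounding.

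*Col14a1* moved in opposite directions between sets, with every Homo library below every Het library at P22 (log2 fold change -0.39) and above every Het library in the P7 rounded TPM (0.60). In the P7 counts it had a value of -0.37 with overlapping groups. The difference between P22 and the rounded TPM was not tested.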

How the results depend on the processing

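For age, the numbers of members called lower (37) and higher (1) stayed within 1.5 times under all alternatives on counts, with 35 to 38 called lower when 1 library was left out. Scaling by library totals alone moved the median of all genes from -0.05 to -0.34 and called 39 members lower. Against the P7 rounded TPM, 0 members were called higher, since *Col19a1* did not pass the minimum there, and *Col27a1* had a value of 0.32 in place of -1.22, for which the cause was not tested. For the P22 genotype, the adjusted p alone gave 4 higher and 3 lower members, by construction, and leaving out 1 library gave 0 to 2 higher and 0 lower. For the rounded TPM, 7 members called higher became 0 with the replicate block, 0 with a minimum of 1 TPM and 0 without a minimum. They became 0 with the length and GC trend removed, 15 without TMM and 0 to 12 without 1 library. Wherever 0 members were called, 0 of all genes were called as well. The cause was not tested. With the replicate block, 2 members were called higher at P22 and 0 in the P7 counts, as without it. For the P7 counts, 0 members were called under every alternative run. For genotype by age, 0 to 1 members were called higher without 1 library (*Col6a1*, without P7 Homo replicate 5) and 0 otherwise. DESeq2 called 48 genes in the P7 counts, where edgeR called 0, and 119 in genotype by age, where edgeR called 5.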
